A study of Homo sapiens with 2 samples.

Results

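The collagen chain genes are the genes whose symbol on the array is COL, a number, A and a number, such as COL4A1. This rule found 44 genes among 34757 genes with a symbol, measured by 64 probes. They were grouped as 11 fibrillar chains, 8 basement membrane chains and 25 other chains. In A375 melanoma cells, 26 of the 44 genes gave a signal called well above background on at least 1 array, and 18 did not. Over all 34757 genes with a symbol, 17514 gave such a signal. The best-known fibrillar chains COL1A1, COL1A2 and COL3A1 were among the 18. Both arrays measured 31 of the probes. With THOC2 siRNA 0 of these passed 2-fold downward and 0 upward, against 0.365% and 0.829% of all 22207 such probes. At such shares 31 probes are too few to tell a difference. The median change of the measured collagen genes was 0.10 on the log2 scale.

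Collagens are extracellular matrix proteins made of chains wound into a triple helix, in which glycine recurs at a fixed spacing. Fibrillar collagens form the banded fibres of dermis, tendon and bone. Type IV collagen is the network of basement membranes, the sheet below epithelia and around vessels, and types XV and XVIII belong to basement membrane zones. FACIT collagens bind to the surface of fibrils, and type VI builds beaded microfibrils. In skin, fibrillar collagen comes mainly from fibroblasts, and melanoma cells meet both the basement membrane and the dermal fibres when they invade.

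A375 cells are a line from a human melanoma. An siRNA is a small RNA duplex that directs the degradation of matching mRNAs. RNA of 1 culture transfected with si-THOC2, against a subunit of the THO complex of mRNA export, and of 1 culture transfected with the control siRNA NC was harvested after 48 h and hybridized to 1 Agilent array each. Each condition had 1 array and no replicate culture, so how much cultures vary is not known, and the values below carry no test and no p-value. Both cultures carried an siRNA, and no untreated culture was measured here. The methods list several THOC2 siRNAs without naming the one on the array, and the labels and methods name different culture media. The source field of each sample names the condition opposite to its title and description. Titles and descriptions were followed, so every direction below rests on them.

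The signal given below is the scanner software's background-subtracted intensity. Its log2 value was reduced by the 75th percentile of its array, 6.62 with NC and 6.31 with si-THOC2, so a probe with equal signals on both arrays has a log2 fold change of 0.31. A log2 fold change is always si-THOC2 minus NC on this scale. A probe was compared where the software called it well above background on at least 1 array. Repeated spots of the same probe gave a technical SD of the log2 fold change of 0.06 at a mean log2 signal over 8, 0.11 between 6 and 8, 0.29 between 4 and 6, and 0.44 under 4. These SDs cover the spots of these arrays and leave out the differences between cultures.

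THOC2 itself had 2 probes on the minus strand of chromosome X (hg19), both well above background on both arrays. Its probe at 122734486 to 122734545 gave 136 with NC and 40.9 with si-THOC2 (log2 fold change -1.42, technical SD 0.11). Its probe at 122747960 to 122748019 read 67.3 with NC and 35.1 with si-THOC2 (log2 fold change -0.63, technical SD 0.29). The target was lower on the array that the titles assign to si-THOC2, at both probes.

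Some collagen probes carry the repeat of the helix in their own bases. Glycine codons begin with GG, so a helix gives GG at steps of 9 bases. Among the 64 collagen probes of 60 bases, 2 (3.12%) held at least 5 GG in one such step, against 0.0309% of all probes of that length. They are shown because each is a probe of a chain described below. The capitals mark the GG in step, and the sequences are the deposited probes, written 5′ to 3′ on the minus strand of hg19.
COL16A1, chr1:32148536-32148595: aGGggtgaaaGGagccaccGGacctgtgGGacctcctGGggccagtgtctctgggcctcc
COL9A1, chr6:70926717-70926776: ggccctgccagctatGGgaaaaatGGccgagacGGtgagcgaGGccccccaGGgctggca
The remaining 62 probes have fewer GG in step. Of the 5 genes with 3 probes and the 10 with 2, COL11A2 alone had a pair of probes that share a run of more than 9 bases, 22 bases long, so these are not separate readings of its transcript.

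The type IV genes lie in head-to-head pairs that start near each other on opposite strands. In RefSeq (GRCh38.p14), 126 bases lie between the starts of COL4A1 and COL4A2 on chromosome 13, 418 between COL4A4 and COL4A3 on chromosome 2, and 379 between COL4A6 and COL4A5 on chromosome X. The stretch between COL4A1 and COL4A2 is shown whole because both genes were measured on both arrays. It is written on the plus strand, with the letters GGGCGG, a GC box, and CCAAT in capitals.
COL4A1 and COL4A2, chr13:110307158-110307283: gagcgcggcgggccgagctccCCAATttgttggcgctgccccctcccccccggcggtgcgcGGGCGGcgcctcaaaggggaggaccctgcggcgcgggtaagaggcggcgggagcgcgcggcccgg
Both motifs were searched on both strands, and they do not overlap here. In the last 126 bases before the start, GGGCGG was in 34.6% of 35116 RefSeq promoters and in 43.2% of the 44 promoters of the 32 collagen genes in that table. CCAAT was in 21.1% and 18.2%. A match describes the letters and shows no binding.

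Calls of 2-fold change rested on 4 probes. Of the 36 collagen probes compared, 2 were lower by 2-fold or more (5.56%), against 3.33% of 25345 probes on the whole array, and 2 were higher (5.56%), against 2.93%. Each of these 4 probes was well above background on 1 array only. Both lower probes belong to COL9A1, and the higher probes belong to COL4A4 and COL4A6. At these numbers, 1 probe less would put either share below that of the whole array. Of the 31 collagen probes measured on both arrays, 0 were lower by 1.5-fold or more, against 2.94% of 22207 such probes. Higher by 1.5-fold was 1, a probe of COL6A3, against 3.84%. These 31 probes are too few to tell such shares apart.

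Smaller differences went both ways. Among the 31 probes, 5 were lower and 10 higher by more than 2 technical SDs, which measures the arrays and not the cultures. The same measure put 3295 lower and 5129 higher among the 20285 both-array probes of genes with a symbol. The log2 fold changes had an SD of 0.28 over the 31 collagen probes and 0.32 over all 22207 probes. Over the 26 collagen genes compared, 17 were above 0 and 9 below, with a median of 0.10. Over all 17514 genes compared 9354 were above 0 and 8160 below, with a median of 0.02. Of the 22 collagen genes measured on both arrays 15 were above 0 and 7 below, with a median of 0.10. Of all 15647 genes so measured 8887 were above 0 and 6760 below, with a median of 0.04. In bulk RNA, a change in the number of cells that hold a transcript and a change in the RNA per cell cannot be told apart.

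**Figure D1:**
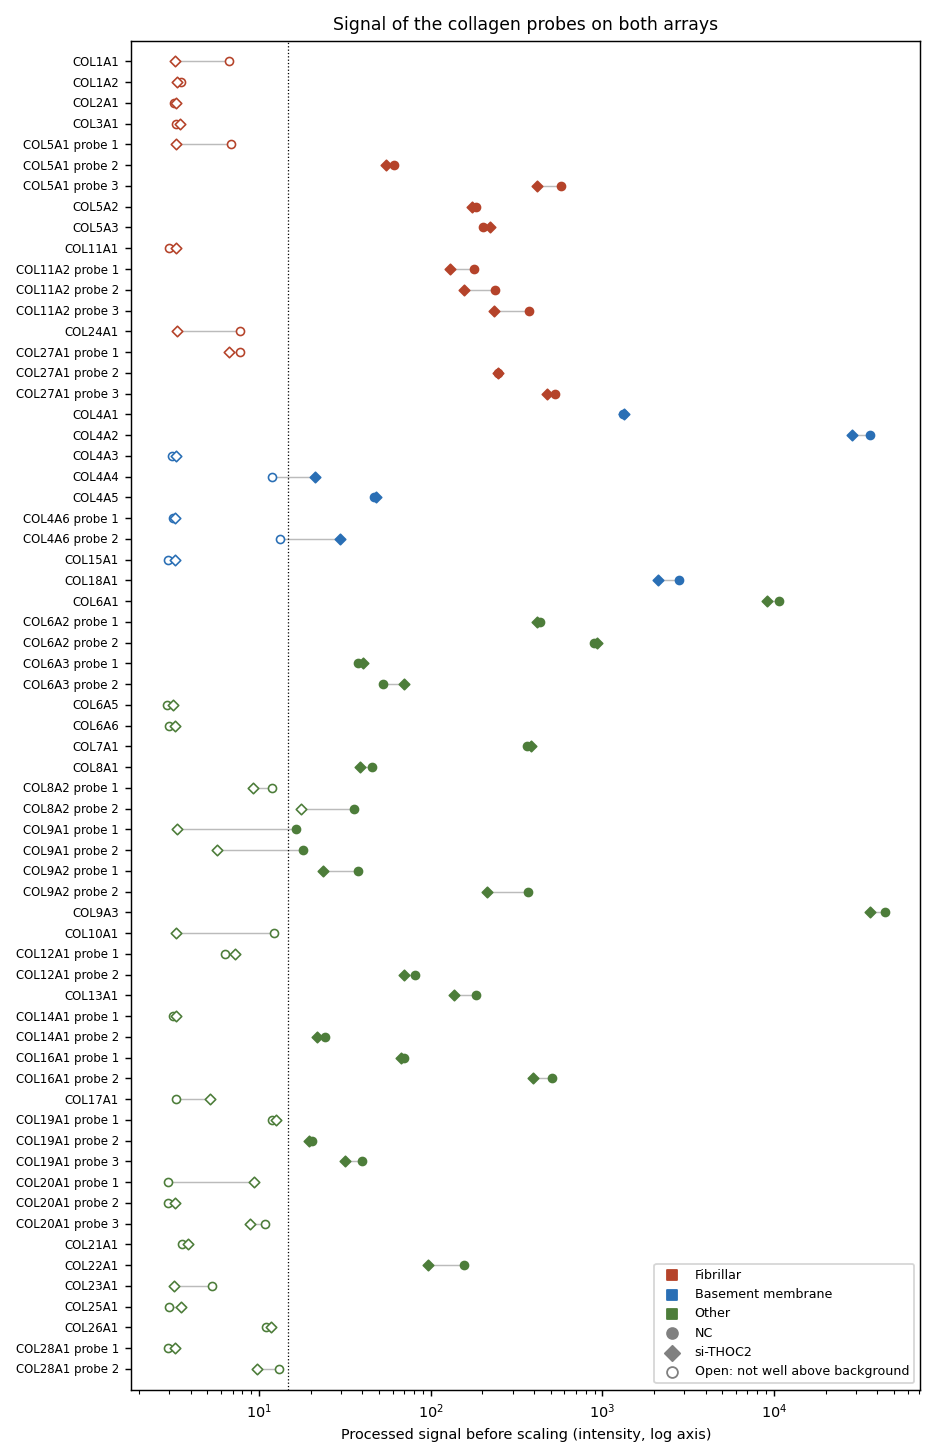
Signal of each of the 64 collagen probes (log axis, intensity before scaling) with NC (circles) and si-THOC2 (diamonds), coloured by group. Open symbols are not well above background, the dotted line marks the lowest signal called well above background with NC (14.7), and 28 probes are open on both arrays.

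Fibrillar chains were measured at 5 of 11 genes: COL5A1, COL5A2, COL5A3, COL11A2 and COL27A1. COL1A1, COL1A2, COL2A1, COL3A1, COL11A1 and COL24A1 were not well above background on either array. COL1A1 and COL1A2 form type I collagen, the main protein of dermis, tendon and bone. COL2A1 is the cartilage chain, and COL3A1 accompanies type I in elastic tissues. The COL1A2 probe was printed on 10 spots and the other 63 collagen probes on 1 spot each. None of their spots was saturated or marked as an outlier. Over the 5 measured genes, 3 were above 0 and 2 below, with a median of 0.22.

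The type V chains, which start type I fibrils and limit their width, gave 3 different readings. COL5A3 on chromosome 19 (10070543 to 10070602, minus strand) gave 201 with NC and 220 with si-THOC2 (log2 fold change 0.44, technical SD 0.11). COL5A2 on chromosome 2 (189897429 to 189897488, minus strand) went from 184 to 173 (log2 fold change 0.22, technical SD 0.11). COL5A3 was the highest of the fibrillar genes by this measure. The probes of COL5A1 on chromosome 9 differed in sign, at 0.15 (61.3 to 54.8) and -0.15 (575 to 418). The brighter COL5A1 probe lay where 14.4% of the surrounding compared probes were higher by 2-fold, and the COL5A2 probe where 9.35% were, against a median of 1.604% over 128 parts of the array. The part that the place on the array had in these values was not tested.

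The difference of the changes of 2 chains does not depend on the scaling of an array as a whole. COL5A3 exceeded COL5A1 by 0.44 on the log2 scale (technical SD of the difference 0.18), and it did so in 11 of 11 alternative settings, at 0.28 to 0.70. All settings share the same 2 arrays, and some leave such a difference unchanged by construction. The pairs of chains were chosen after their values were seen. The technical SD of a difference leaves out the spread among probes, an SD of 0.32 over all 22207 measured on both arrays. COL5A2 exceeded COL5A1 by 0.22 (technical SD 0.18). The second of these differences is close to the technical SD.

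COL11A2, a chain of the minor cartilage fibril collagen that is also made outside cartilage, was lower at all 3 probes on chromosome 6. Its signal went from 178 to 130 at the probe from 33154232 to 33154291 (log2 fold change -0.14). At the 2 probes that share bases it went from 238 to 157 and from 375.2 to 233, with log2 fold changes of -0.29 and -0.38 (technical SDs 0.11 and 0.06). COL11A2 was the lowest of the fibrillar genes, with a mean of -0.27, and kept its sign in 11 of 11 settings. COL27A1, a fibrillar chain of cartilage and other tissues, was measured by 2 of its 3 probes. They read 246 and 245 (log2 fold change 0.30) and 526 and 475 (0.16). The first of these lay where 10% of compared probes were higher by 2-fold. Both COL27A1 probes were thus slightly higher on the scaled values, while their signals before scaling were equal or lower.

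**Figure D2:**
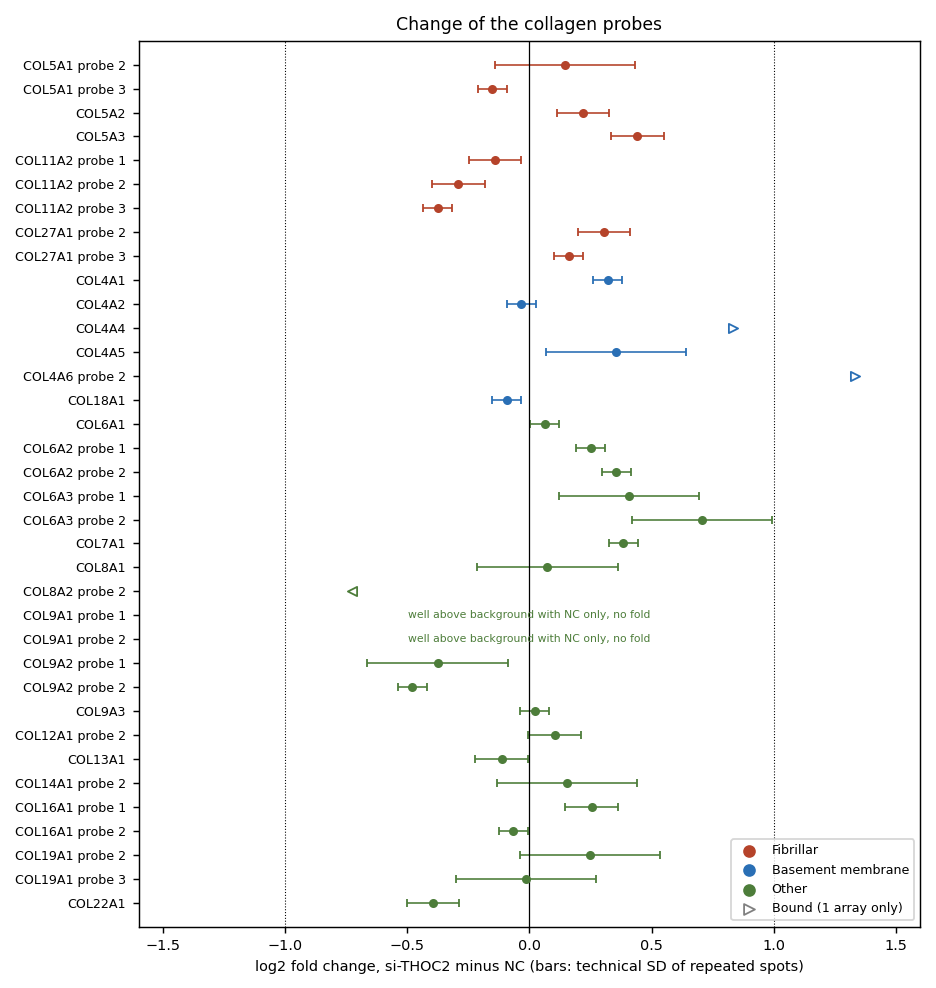
log2 fold change (si-THOC2 minus NC) of the 36 collagen probes compared, coloured by group, with bars for the technical SD of repeated spots and dotted lines at 2-fold. Arrowheads mark probes well above background on 1 array only, as bounds for COL4A4 and COL4A6. The arrowhead of COL8A2 is its estimate and no bound, and the COL9A1 probes carry no symbol. No probe measured on both arrays reaches a dotted line.

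Basement membrane chains were measured at 6 of 8 genes. COL4A1 and COL4A2 make the type IV network found in all basement membranes. COL4A1 on chromosome 13 (110802347 to 110802406, minus strand) gave 1320 with NC and 1330 with si-THOC2 (log2 fold change 0.32, technical SD 0.06). COL4A2 (111165261 to 111165320, plus strand) went from 36342 to 28623 (log2 fold change -0.03, technical SD 0.06). Over 11 settings COL4A1 ranged from 0.184 to 0.345 and COL4A2 from -0.167 to -0.035, which is wider than these technical SDs. The change of COL4A1 exceeded that of COL4A2 by 0.36 (technical SD of the difference 0.08), and by 0.35 to 0.42 over 11 settings. The genes that start 126 bases apart therefore did not give the same reading on these arrays, and neither passed 1.5-fold. The technical SD of this difference leaves out the spread among probes, an SD of 0.23 over all 10015 at a mean log2 signal over 8.

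The other type IV chains belong to kidney, lung, eye and smooth muscle basement membranes. COL4A5 on chromosome X went from 46.5 to 47.9 (log2 fold change 0.35, technical SD 0.29). COL4A6, its head-to-head neighbour (107399050 to 107399109, minus strand), gave 13.2 with NC, not well above background, and 29.7 with si-THOC2. At the scaling used here the bound of COL4A6 was 2.52-fold higher with si-THOC2, while its other probe was not well above background on either array. With normexp background correction, which adds an offset to every signal, the log2 fold change was 0.455, and as the mean of both probes it was 0.92. COL4A4 on chromosome 2 (227867464 to 227867523, minus strand) went from 11.9, not well above background, to 21.04. Its bound was 1.78-fold higher at the same scaling, and its log2 fold change with normexp was 0.34. Such a bound sets the brighter scaled signal against the lowest signal well above background on the other array, 14.7 with NC, or the probe's own where that is higher. The bound leaves out the technical SD. A probe can read over that lowest signal without being called, so the fold can be smaller than its bound. COL4A3 was not well above background on either array. Both COL4A4 and COL4A6 thus rest on 1 dim probe each, near the limit of the arrays.

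COL18A1, whose carboxyl end is released as endostatin, went from 2777 to 2099 (log2 fold change -0.09, technical SD 0.06). Over 11 settings its log2 fold change ranged from -0.211 to -0.067. COL15A1, its close relative, was not well above background. Over the 6 basement membrane genes 4 were above 0 and 2 below, with a median of 0.34. Over the 4 measured on both arrays 2 were above 0 and 2 below, and the median was 0.14.

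Other chains were measured at 15 of 25 genes, 10 above 0 and 5 below, with a median of 0.07. Over the 13 measured on both arrays 10 were above 0 and 3 below, and the median was 0.09. Type VI collagen, which ties cells to the matrix and is secreted as a COL6A1, COL6A2 and COL6A3 assembly, was measured at all 3 of these chains. COL6A1 on chromosome 21 went from 10730 to 9037 (log2 fold change 0.06, technical SD 0.06), and its sign turned in 2 of 11 settings. COL6A2 went from 431 to 414 and from 897 to 925, with log2 fold changes of 0.25 and 0.35. COL6A3 on chromosome 2 went from 37.7 to 40.3 (238280289 to 238280348) and from 52.9 to 69.5 (238234204 to 238234263), with log2 fold changes of 0.41 and 0.70 (technical SD 0.29 each). COL6A3 was the highest of the collagen genes measured on both arrays, with a mean of 0.56. Its probes lay in parts of the array where 12.3% and 17.5% of probes were higher by 2-fold. With each part of the array centred on its own median the mean was 0.37, and COL5A3, at 0.405, was then higher.

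The change of COL6A3 exceeded that of COL6A1 by 0.49 (technical SD of the difference 0.21), and by 0.31 to 0.64 over the 11 settings. COL6A2 exceeded COL6A1 by 0.24 (technical SD 0.07). These technical SDs too leave out the spread among probes. Over all probes its SD was 0.44 at a mean log2 signal between 4 and 6, where COL6A3 lay, and 0.23 over 8. The later-described chains COL6A5 and COL6A6 were not well above background.

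The type IX chains, a FACIT of cartilage that is also transcribed in other tissues, went apart. COL9A3 on chromosome 20 was bright, at 44019 with NC and 36021 with si-THOC2 (log2 fold change 0.02, technical SD 0.06) whose sign turned in 5 of 11 settings. COL9A2 on chromosome 1 was lower at both probes, from 37.8 to 23.5 (40783351 to 40783410) and from 368 to 213 (40766380 to 40766439), with log2 fold changes of -0.38 and -0.48 (technical SDs 0.29 and 0.06). COL9A2 was the lowest collagen gene measured on both arrays, at -0.43, although with normexp it was at -0.215 and COL22A1 (-0.30) and COL11A2 (-0.25) were lower. It was lower than COL9A3 in 11 of 11 settings, with a difference of 0.45 (technical SD 0.16) that ranged from 0.199 to 0.50. Here too the technical SD leaves out the spread among probes.

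COL9A1 was well above background with NC only. Its probes on chromosome 6 read 16.3 with NC and 3.33 with si-THOC2 (70989586 to 70989645), and 17.9 and 5.70 (70926717 to 70926776, the repeat probe printed above). Both NC signals lay just over the lowest signal well above background, and the si-THOC2 limit of 15.9 leaves no fold. The plain log2 fold changes of -1.99 and -1.34, which made the 2-fold calls, are therefore not bounds. With normexp background correction the mean of both was -0.13.

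Of the other FACIT chains, COL22A1, found at tissue junctions, was lower, from 157 to 96.4 (log2 fold change -0.40, technical SD 0.11). COL12A1 and COL14A1, which bind type I fibrils, gave 0.10 (81.1 to 70.3) and 0.15 (24.2 to 21.7), both within 1 technical SD of 0. COL16A1 gave 0.25 at its repeat probe (69.9 to 67.3) and -0.07 at its other probe (510 to 393). COL19A1 gave 0.25 (20.3 to 19.5) and -0.01 (39.5 to 31.6). The probes of COL16A1 and of COL19A1 thus did not share a sign, and COL20A1 and COL21A1 were not well above background. Over the 8 FACIT genes compared, 5 were above 0 and 3 below, with a median of 0.06. Over the 7 measured on both arrays 5 were above 0 and 2 below, and the median was 0.09.

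COL7A1, which forms the anchoring fibrils that hold epidermis to dermis, went from 365 to 385 on chromosome 3 (log2 fold change 0.38, technical SD 0.06). It was above 0 in 11 of 11 settings, from 0.23 to 0.38. Several of these settings cannot change a gene with 1 probe measured on both arrays. COL8A1, a network chain of vessels and cornea, went from 45.4 to 38.5 (log2 fold change 0.07, technical SD 0.29). COL8A2, its partner, was well above background with NC only, at 35.9 against 17.5. Its log2 fold change was -0.73 (1.66-fold lower, technical SD 0.29). The dim signal lay over the lowest signal well above background with si-THOC2, 15.9, so this fold is an estimate and no bound. The log2 fold change of COL8A2 was -0.13 with normexp. It was -0.395 when averaged with its second probe, which was not well above background on either array. COL10A1, the network chain of growth plate cartilage, was not well above background.

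Among the transmembrane chains COL13A1 was measured, at 184 with NC and 137 with si-THOC2 (log2 fold change -0.11, technical SD 0.11). COL17A1 of hemidesmosomes, COL23A1 and COL25A1 were not well above background, nor were COL26A1 and COL28A1. Moving COL7A1 and COL17A1, both of the dermal-epidermal junction, into the basement membrane group gave that group a median of 0.35 and the other group 0.07. COL17A1 was not compared, so COL7A1 alone changed these medians. The 0.35 includes COL4A4 and COL4A6, well above background with si-THOC2 only. Over the 5 genes of the widened group measured on both arrays the median was 0.32.

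**Figure D3:**
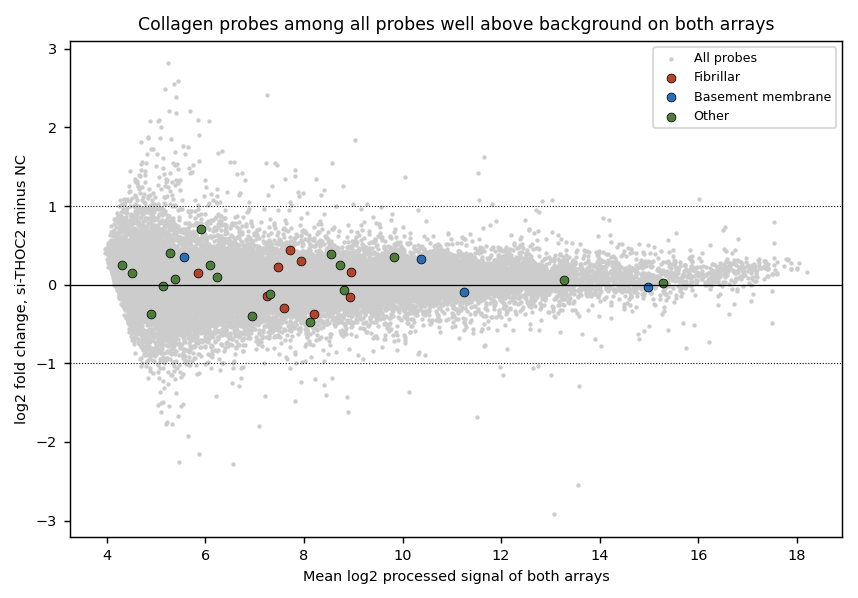
log2 fold change (si-THOC2 minus NC) against mean log2 signal of both arrays for 22207 probes measured on both arrays (grey) and the 31 collagen probes among them, coloured by group. The collagen probes lie within the grey cloud at every signal, between -0.48 and 0.70.

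The spread of the collagen probes was set beside that of probes of like signal. At a mean log2 signal between 4 and 6 the SD of the log2 fold change was 0.30 over 9 collagen probes and 0.44 over all 6179 probes. Between 6 and 8 it was 0.29 over 9 and 0.31 over 6010, and over 8 it was 0.27 over 13 and 0.23 over 10015. The SD of the collagen probes was thus lower than that of all probes between 4 and 6, near it between 6 and 8, and higher over 8. With 9 to 13 collagen probes in a range, these SDs are coarse. The medians in these ranges were 0.15, 0.10 and 0.02 for the collagen probes and 0.04, -0.0014 and 0.06 for all probes.

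A collagen chain is hydroxylated, glycosylated, folded, exported and trimmed by a set of helper proteins. Of 40 such genes, 31 were compared, 15 above 0 and 16 below, with a median of -0.01. Among their 47 compared probes 1 was lower by 2-fold and 0 were higher, against the array's 3.33% and 2.93%. Of these probes 45 were measured on both arrays, the lower one among them. The shares over all probes measured on both arrays were 0.365% lower and 0.829% higher. CREB3L1, a transcription factor of the secretory pathway known to activate collagen genes, was lower by the most. Its signal on chromosome 11 (46342759 to 46342818) was 588 with NC and 196 with si-THOC2 (log2 fold change -1.27, technical SD 0.06). SPARC, a collagen-binding matrix protein, went from 5252 to 2851 (log2 fold change -0.57), and 10.3% of the probes around it on the array were lower by 2-fold.

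FKBP10, a chaperone of procollagen in the endoplasmic reticulum, was the highest of this list, from 3192 to 4506 (log2 fold change 0.81, technical SD 0.06). P3H1, a prolyl 3-hydroxylase, had a mean of 0.63, with 0.89 at a dim probe (21.5 to 32.2) and 0.37 at a bright one (1147 to 1199).

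Of 11 collagen receptor genes 10 were compared, 6 above 0 and 4 below, with a median of 0.09, and 0 of their 11 compared probes passed 2-fold. These 11 were measured on both arrays, where 0.365% of 22207 probes were lower by 2-fold and 0.829% higher. At such shares 11 probes are too few to tell a difference. ITGA10, an integrin chain that binds type II and type IV collagen, was the highest, from 76.5 to 92.6 (log2 fold change 0.59, technical SD 0.11). LAIR1, an inhibitory receptor of immune cells, went from 20.9 to 23.9 (log2 fold change 0.51, technical SD 0.29). DDR1, a receptor tyrosine kinase for collagen, was the lowest, from 1282 to 830 (log2 fold change -0.32, technical SD 0.06). ITGA1 followed at -0.06 (82.2 to 63.7).

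**Figure D4:**
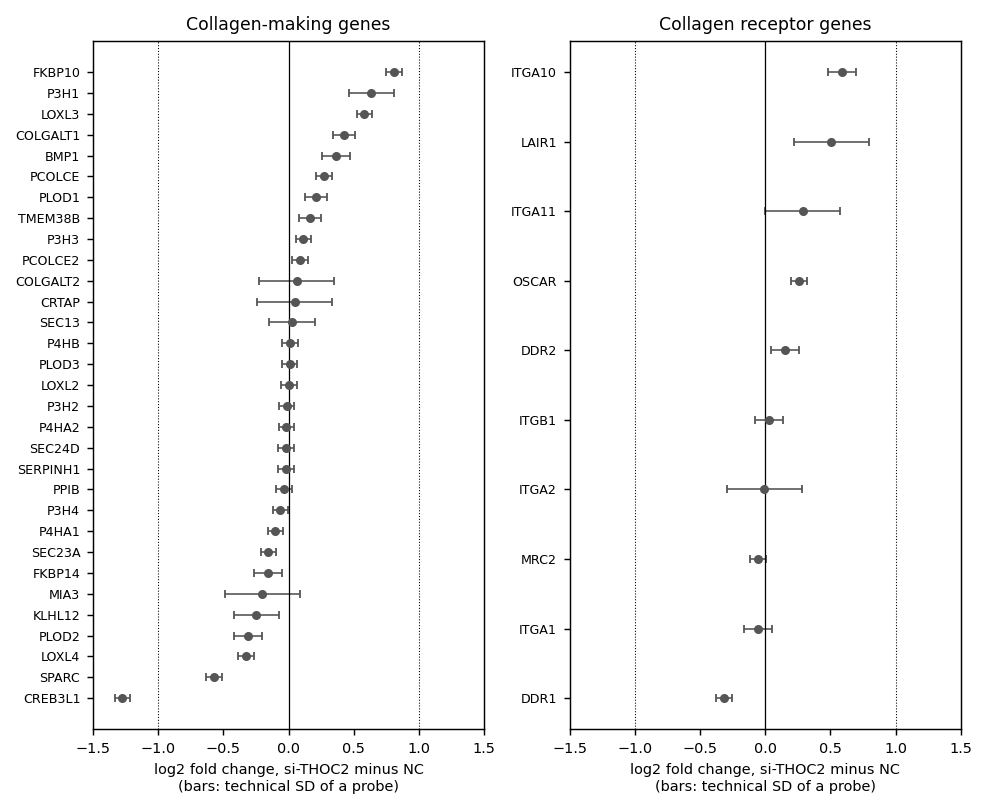
log2 fold change (si-THOC2 minus NC) of the 31 collagen-making genes and the 10 collagen receptor genes measured on both arrays, as the mean of a gene's probes, with bars for the technical SD of a probe and dotted lines at 2-fold. CREB3L1 is the one gene past a dotted line.

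The markers of the cell type and of other collagen sources were read beside these values. Of 8 melanocyte and melanoma markers 5 were compared. SOX10 was bright on both arrays (6196 and 5196), MITF was measured by 2 probes, and S100B was lower (199 to 102, log2 fold change -0.66). The pigment genes PMEL, TYR and TYRP1 were not well above background, DCT was dim (18.0 and 24.4) and MLANA was well above background with si-THOC2 only. Of 7 fibroblast markers, LUM, PDGFRA, THY1 and FAP were not well above background, which was also so for COL1A1, COL1A2 and COL3A1. DCN was higher, from 62.4 to 149 (log2 fold change 1.56) at 1 of its 2 probes, DPT was at 0.37, and PDGFRB was at 0.12 and -0.31. Of 4 endothelial markers 2 were above 0 and 2 below. KDR (56.0 and 55.3, log2 fold change 0.29) and PECAM1 (16.2 and 17.6, log2 fold change 0.43) were measured on both arrays, and CDH5 and VWF with NC only. The part of any such cells in the collagen values was not tested.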

How the data were processed

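RNA of 1 culture of A375 cells with NC and 1 with si-THOC2 was measured on 1-colour Agilent SurePrint G3 v3 arrays. The deposited scanner files hold an intensity for each spot. Per the labels the authors used Feature Extraction 10.7.1.1, and this software subtracts background and marks outlier, saturated and well-above-background spots. The authors also deposited normalized log2 values, used as an alternative, and a table of their own fold changes, not used. The methods' Student's test needs more arrays and was not run.

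Control and outlier spots were left out and log2 values of a probe's spots averaged. Of the resulting 58199 probes, 42.3% with NC and 39.4% with si-THOC2 were well above background. The number of arrays limits the precision. Compared probes were averaged to give 1 value for each gene. The members and lists were chosen with earlier results of these data known. Named were THOC2, every collagen gene compared, list genes past 2-fold on both arrays and the highest and lowest 2 of the making and receptor lists. The pairs of chains of 1 collagen type whose changes were subtracted were chosen after their values were seen. Of the cell type markers, those with a signal were named after their values were seen. The alternatives were quantile and median scaling, lowess centring (span 0.3), normexp (offset 50), other detection filters, dim signals at their limit, the authors' values, centring by part of the array, outlier spots kept, the brightest probe, other members and folds of 1.5 and 3. Positions are from the deposited annotation (hg19), and exons and UTRs were not analysed here. Promoters are from RefSeq. The comparison was tested on simulated data. Python 3.11.15, numpy 2.4.6, pandas 2.3.3, statsmodels 0.14.6, R 4.3.3 and limma 3.58.1 were used.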

Additional observations from a re-analysis of the deposited data

How the results depend on the processing

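Of the 26 collagen genes compared, 22 kept their sign in every setting that could be run and 4 (COL6A1, COL9A3, COL16A1 and COL19A1) turned in at least 1. Every setting used the same 2 arrays. Several settings leave a gene measured on both arrays unchanged by construction, so counts of settings are not counts of separate checks. COL9A1, counted among the 22, had no fold where dim signals were set at their limit. The 2 collagen probes lower by 2-fold became 1 with lowess centring or a fold of 3, and 0 with normexp background correction, with probes measured on both arrays, or where dim signals were set at their limit. The 2 higher probes became 1 where dim signals were set at their limit, and 0 with normexp, with probes measured on both arrays, or at a fold of 3. The mean of THOC2 went from -1.03 to -0.51 with normexp. With normexp the fibrillar median went from 0.22 to 0.082 and that of the collagen-making genes from -0.01 to -0.081. The basement membrane median was 0.14 with probes measured on both arrays. With no detection filter the medians were 0.25 for all collagen genes, 0.21 for the other chains and 0.29 for the receptors, while the median of all genes was 0.24. The median of the collagen-making genes was above 0, at most 0.01, in 4 settings. Except where a setting's own construction changes which probes enter, the cause was not tested. The 18 genes not well above background have no value here, and at dim signals the technical SD allows only large differences to be seen. No paired analysis was possible because each condition has 1 array.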

Other observations

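Probes of other genes whose symbols begin with COL and that the rule leaves out were read as well. COL4A2-AS1, an antisense RNA of the COL4A2 locus, gave 58.2 with NC and 36.4 with si-THOC2 (log2 fold change -0.37). COL4A3BP, which encodes a ceramide transfer protein and no collagen, gave -0.30 (129 to 84.2) and -0.14 (268 to 196) at its probes. The antisense RNAs of COL18A1 and COL5A1, COL4A2-AS2 and the COL6A4 pseudogenes were not well above background on either array.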
